A study of Rattus norvegicus with 10 samples.

Results

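The mitochondrial chromosome of the rat carries its own small set of genes, and this report describes all 37 of them among the 32883 genes of a liver RNA-seq study. Members were taken by position: every gene listed on chromosome MT, which gave 13 protein-coding, 2 rRNA and 22 tRNA genes. The study compared livers of 5 male Sprague-Dawley (SD) rats with livers of 5 male Eisai hyperbilirubinemic rats (EHBR), all 5 weeks old and with no treatment named. EHBR is a mutant line derived from SD rats that lacks Abcc2 (Mrp2), the pump that moves conjugated bilirubin and other organic anions from hepatocytes into bile. As 1 mutant line was compared with 1 control stock, the loss of Abcc2 and other differences between the rats cannot be told apart.

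Mitochondrial DNA is transcribed from both strands as long precursors, and most of its protein-coding genes lie on the strand listed here as plus. Excision of the tRNAs that punctuate these precursors frees the mRNAs and rRNAs, most of the mRNAs then receive a short poly(A) tail, and their levels depend on how fast each RNA decays as well as on transcription. The 13 proteins are core subunits of respiratory chain complexes I, III and IV and of the ATP synthase (complex V), while the rRNAs and tRNAs serve the organelle's own ribosome. Liver is rich in mitochondria, which house fatty acid oxidation and parts of the urea cycle and of bile acid and haem synthesis.

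Values of 2 units were used side by side, TPM, which gives each library the same sum over genes, and FPKM, which divides by the reads of a library, both after adjustment for gene length. Libraries held 13.8 to 19.6 M reads behind the FPKM values, and the mitochondrial genes took 1.19 to 2.15 M of them. Abcc2 itself was at 59.98 to 270.6 TPM in SD and at 10.1 to 17.6 TPM in EHBR (log2 difference -3.25, SE 0.41, limma adjusted p = 0.0010). The SD samples numbered 4 and 5 had the lowest 2 of the SD values of Abcc2, and across the study samples 4 and 5 of each strain stand apart from samples 1 to 3. No source used here says what the numbers stand for, and results are also shown within samples 1 to 3 and within samples 4 and 5. Hepatocyte markers were abundant in every library, at a summed 140583 to 184878 TPM over 8 genes, while kidney markers summed to at most 0.196 TPM, with 4 of 6 at 0 in all samples. In bulk tissue, fewer cells or mitochondria of a kind and less RNA per cell cannot be told apart.

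Over all 10 samples, no strain difference was detected in the mean share of mitochondrial RNA in the transcriptome. Of the summed TPM, the 37 genes took 13.4, 13.3, 12.99, 17.4 and 17.0% in SD samples 1 to 5. In EHBR the shares were 15.3, 14.1, 14.6, 15.1 and 16.2%. The EHBR values lay inside the SD range, and the means were 14.8 ± 2.19% and 15.1 ± 0.794% (± s.d., n = 5 each). The difference of 0.249 percentage points was within the spread (two-sided exact permutation test, p = 0.81, where the smallest p possible is 0.0079). As a share of FPKM the means were 13.9 ± 2.18% and 14.5 ± 0.779% (exact permutation p = 0.56).

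The close means over all samples hid opposite differences in the sample sets. Among samples 1 to 3, every EHBR share (14.1 to 15.3%) was above every SD share (12.99 to 13.4%), a difference of 1.45 percentage points. Among samples 4 and 5, both EHBR shares were below both SD shares, by 1.56 points on average. Neither set can reach a small p, the smallest possible being 0.1 for 3 against 3 and 0.33 for 2 against 2 in the exact permutation test, and both comparisons sat at that limit. Counted as reads per library, the higher EHBR share in samples 1 to 3 was no longer free of overlap, while the lower one in samples 4 and 5 remained so. In the plot of mitochondrial shares, SD samples 1 to 3 are the lowest in TPM, SD samples 4 and 5 the highest, and the EHBR samples lie between them.

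**Figure D1:**
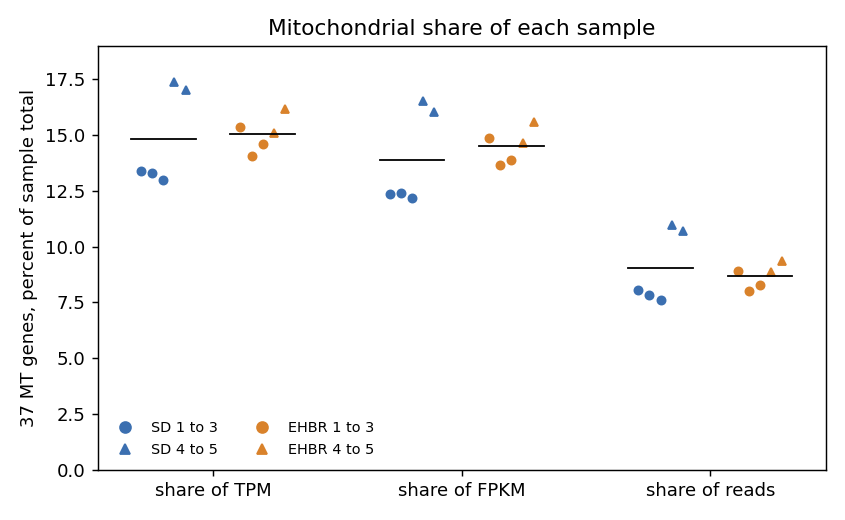
Share of the 37 mitochondrial genes in each sample, as percent of summed TPM, of summed FPKM and of reads behind the FPKM values. Each point is 1 sample (circles, numbers 1 to 3, and triangles, numbers 4 and 5), and black lines are strain means; in TPM, SD samples 4 and 5 are at 17.4% and 17.0%, above every EHBR sample.

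Of the 37 members, 25 passed the filter, a TPM of 1 or more in 5 or more samples: all 13 protein-coding genes, both rRNA genes and 10 of the 22 tRNA genes. EHBR was higher for 2 of the 25, the larger rRNA gene and Mt-atp8, lower for none, and 23 did not pass limma's test at an adjusted p of 0.05. Among all 11083 genes tested, 3.82% were higher and 1.63% lower, and the members' 2 of 25 is read against those shares. At an unadjusted p under 0.05, limma gave 6 members higher and 1 lower in TPM, beside 16.6% and 4.35% of all tested genes. With voom on the reads behind TPM it gave 4 higher and 3 lower, beside 12.9% and 6.45%. In FPKM, 1 member was higher, the larger rRNA gene, beside 2.75% of the genes tested there. The median log2 difference of the 25 was 0.04, beside 0.15 over all tested genes. By overlap alone, every EHBR sample was above every SD sample for 5 of the 25 members and below for none, against 6.45% and 2.02% of all tested genes. The 5 were Mt-nd1, Mt-nd2, Mt-atp8, the larger rRNA gene and 1 tRNA gene. Of these, the larger rRNA gene alone stayed wholly above in FPKM, and the others overlapped. The tRNA gene at 5081 to 5152 was also wholly above in FPKM, on 0 to 3 reads per sample. Overlap in FPKM was not counted over all genes.

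**Figure D2:**
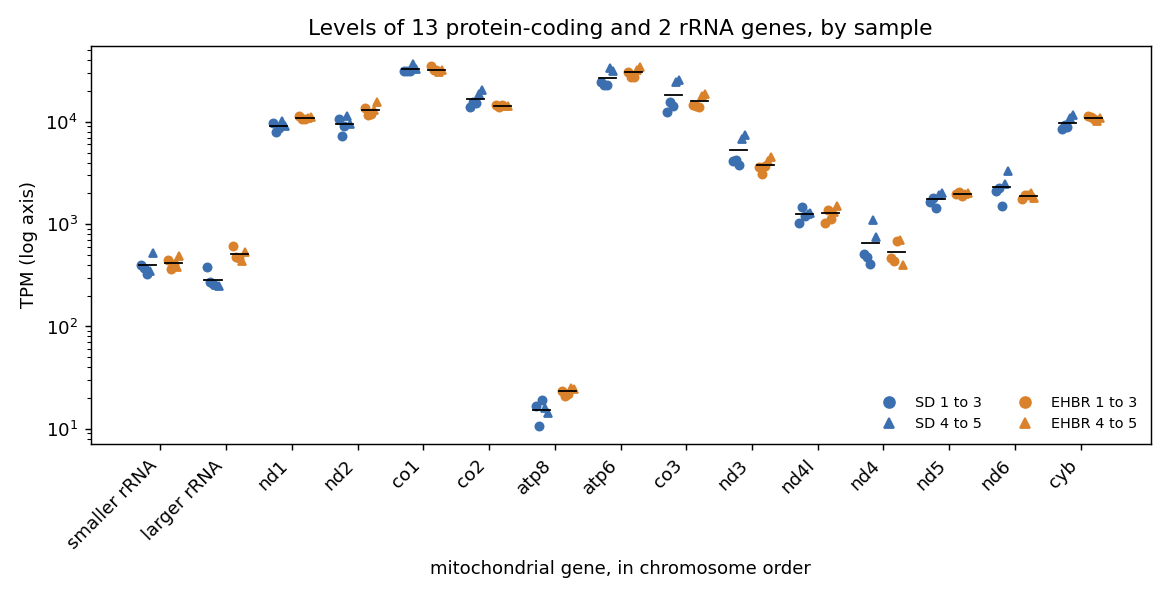
TPM on a log axis of the 13 protein-coding and 2 rRNA genes in each of the 10 samples, in the order of the chromosome; points are samples and black lines are strain means. For the larger rRNA gene all EHBR points (437 to 614 TPM) lie above all SD points (251 to 378 TPM), while those of Mt-co1 overlap.

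Per unit of length the protein-coding genes spanned a wide range. Mt-co1 (MT, 5323 to 6867, plus strand), the catalytic subunit of cytochrome c oxidase, had the highest mean over the 10 samples, 32491 TPM, followed by Mt-atp6 at 28645, Mt-co3 at 17147 and Mt-co2 at 15555 TPM. Sample ranges of neighbours in this order overlapped. Mt-nd2, Mt-cyb and Mt-nd1 formed a middle group with mean levels of 11365, 10318 and 10017 TPM. Mt-nd3, Mt-nd6, Mt-nd5, Mt-nd4l and Mt-nd4 were lower, from 4538 down to 592 TPM, and Mt-atp8 was the lowest at 19.3 TPM. The places of Mt-atp8, Mt-nd4l and Mt-nd6 in this order depended on the table, as described further on. As the libraries were selected for poly(A) tails, the order is that of the RNA the selection retained.

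The larger rRNA gene (ENSRNOG00000043866; MT, 1094 to 2664, plus strand) encodes the rRNA of the large subunit of the mitochondrial ribosome. Its level in SD samples 1 to 5 was 378, 274, 257, 256 and 251 TPM. In EHBR it was 614, 474, 469, 437 and 539 TPM. Every EHBR sample was above every SD sample, and SD sample 1 lay apart from the other SD samples. The strain means were 283 ± 53.6 and 506 ± 70.6 TPM (± s.d., n = 5 each), 1.79 times as high in EHBR, with a log2(TPM + 1) difference of 0.84 (SE 0.13, limma adjusted p = 0.0036). The difference was 0.78 within samples 1 to 3, with a limma adjusted p of 0.038, and 0.93 within samples 4 and 5, with one of 0.035. In FPKM it was 0.77 (limma adjusted p = 0.0079), with adjusted p of 0.068 and 0.055 in the FPKM of samples 1 to 3 and of samples 4 and 5 alone, and 4008 to 9339 reads per sample stood behind the TPM values.

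The smaller rRNA gene (ENSRNOG00000030478; MT, 68 to 1025, plus strand) encodes the rRNA of the small subunit and lies just upstream of the larger one, with a tRNA gene between them. Its TPM overlapped between the strains, at 398, 376, 328, 351 and 525 in SD and 445, 365, 406, 377 and 484 in EHBR. The log2 difference was 0.08 (SE 0.13, limma adjusted p = 0.74). The ratio of the larger to the smaller rRNA, which no scaling between libraries can move, was 0.950, 0.729, 0.784, 0.730 and 0.477 in SD and 1.38, 1.30, 1.16, 1.16 and 1.11 in EHBR. Ratios did not overlap between strains, in TPM or in FPKM. Both rRNAs together were only 0.465 ± 0.0827% and 0.611 ± 0.0554% of mitochondrial TPM (± s.d., n = 5 each), in libraries selected for poly(A) tails, so these values describe the rRNA that the selection retained. Markers that differed alongside are sinusoidal endothelial genes, whose summed TPM was 54.7 to 71.9 in SD and 80.0 to 107 in EHBR (3 of 6 higher), cholangiocyte genes at 15.3 to 17.5 and 12.3 to 13.9 (0 of 2 tested passed), and pancreatic acinar genes at 39.8 to 65.6 and 19.8 to 30.7 (1 lower, and Ctrb1, Pnlip and Prss1 at 0 in all samples). These counts stand beside 3.82% of all tested genes higher and 1.63% lower. The part of these markers in the mitochondrial differences was not tested.

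Complex I, which oxidises NADH, takes 7 subunits from this chromosome, and none of the 7 passed the test between strains. Mt-nd2 (MT, 3904 to 4942, plus strand) came closest. Its TPM was 10764, 7219, 9009, 11517 and 9432 in SD and 13621, 11776, 11895, 12944 and 15472 in EHBR, without overlap, with a log2 difference of 0.47 (SE 0.15, limma adjusted p = 0.097). In FPKM the strains overlapped and the difference was 0.35 (limma adjusted p = 0.27). Mt-nd1 (MT, 2740 to 3694, plus strand) was at 9137 ± 860.5 and 10897 ± 362 TPM (± s.d., n = 5 each), a log2 difference of 0.26 (SE 0.11, limma adjusted p = 0.19), again without overlap in TPM and with overlap in FPKM. With quantile normalization Mt-nd1 passed, at 0.39 (limma adjusted p = 0.037).

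Mt-nd3 (MT, 9451 to 9798, plus strand) had values in the other direction. SD samples 1 to 3 were at 3767 to 4231 TPM and SD samples 4 and 5 at 6850.0 and 7425, while EHBR ran from 3077 to 4495 TPM. Its log2 difference was -0.43 (SE 0.20, limma adjusted p = 0.26). Within samples 4 and 5 it was -0.73, with a limma adjusted p of 0.040. Within samples 1 to 3 it was -0.22, with one of 0.22. With a term for the numbers 4 and 5 in the model, Mt-nd3 (adjusted p = 0.024) and the tRNA gene at 6865 to 6933 were lower and Mt-nd2 (adjusted p = 0.025), Mt-atp8, the larger rRNA gene and the tRNA gene at 3761 to 3831 were higher. That limma model called 13.6% of all tested genes higher and 3.36% lower.

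The remaining complex I members gave smaller or less steady values. Mt-nd5 (MT, 11736 to 13565, plus strand) was at 1769 ± 234 and 1984 ± 65.7 TPM, and Mt-nd4l (MT, 9870 to 10166, plus strand) at 1243 ± 159 and 1273 ± 196 (SD and EHBR, ± s.d., n = 5 each). Mt-nd4 (MT, 10160 to 11537, plus strand) was at 647 ± 279 and 536 ± 143 TPM, with SD sample 4 at 1092. Mt-nd6 (MT, 13543 to 14061), the only protein-coding gene on the minus strand, was at 2328 ± 649 and 1884 ± 117 TPM. Strain differences of these 4 lay between -0.26 and 0.17 on the log2 scale, with limma adjusted p from 0.36 to 0.91.

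Complex III has 1 mitochondrially encoded subunit, cytochrome b. Mt-cyb (MT, 14136 to 15278, plus strand) was at 8456, 9297, 8848, 10939.9 and 11528 TPM in SD and 11277, 11036, 10766, 10239.5 and 10792 in EHBR. The groups overlapped, with a log2 difference of 0.15 (SE 0.12, limma adjusted p = 0.48). Among samples 1 to 3 every EHBR value was above every SD value (log2 0.32, limma adjusted p = 0.063). Within samples 4 and 5 its difference was -0.10, with an adjusted p of 0.57.

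Complex IV, cytochrome c oxidase, has 3. Mt-co1 was at 31328, 31459, 31011, 36679.6 and 33110.4 TPM in SD and 34799.5, 31812, 32334, 30496 and 31878 in EHBR, with overlap. The log2 difference of Mt-co1 was -0.02 (SE 0.12, limma adjusted p = 0.94). Mt-co2 (MT, 7006 to 7689, plus strand), which receives electrons from cytochrome c, was at 14068, 15540.5, 15200.2, 18856 and 20277 TPM in SD and 14471, 13895, 14536, 14322 and 14381 in EHBR. The 5 EHBR values of Mt-co2 lay close together, and SD samples 4 and 5 were the highest of all. Its log2 difference was -0.22 (SE 0.13, limma adjusted p = 0.36). Mt-co3 (MT, 8599 to 9382, plus strand) was at 18380.1 ± 5978 and 15914 ± 2315 TPM (± s.d., n = 5 each), a log2 difference of -0.16 (SE 0.21, limma adjusted p = 0.68). Samples 4 and 5 were above samples 1 to 3 in both strains for Mt-co3.

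The ATP synthase takes Mt-atp6 and Mt-atp8, whose coding regions overlap by 43 bases on the same strand. Mt-atp6 (MT, 7919 to 8599, plus strand), which forms part of the proton channel, was at 26971 ± 4984 and 30319 ± 2966 TPM (± s.d., n = 5 each), a log2 difference of 0.18 (SE 0.15, limma adjusted p = 0.51). Mt-atp8 (MT, 7758 to 7961, plus strand) was at 16.8, 10.7, 19.3, 15.9 and 14.2 TPM in SD and 23.3, 21.0, 22.0, 25.0 and 24.7 in EHBR, without overlap, and was higher in EHBR by 0.59 (SE 0.14, limma adjusted p = 0.035). That call rests on few reads, 23 to 58 per sample. The FPKM values of the same gene rest on 4263 to 7236 reads per sample, ran from 1395 to 1809.6 in SD and from 1336 to 1989 in EHBR, and differed by 0.09 (limma adjusted p = 0.74). The call was lost in FPKM, when any 1 of 8 samples was left out (all but SD samples 2 and 3, adjusted p from 0.053 to 0.083), with median centring (log2 0.42, adjusted p = 0.22), with quantile normalization (log2 0.45, adjusted p = 0.14) and in either sample set alone. Voom on the reads behind TPM (log2 0.52, limma adjusted p = 0.18) and limma with no filter (adjusted p = 0.0504) did not give it either.

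**Figure D3:**
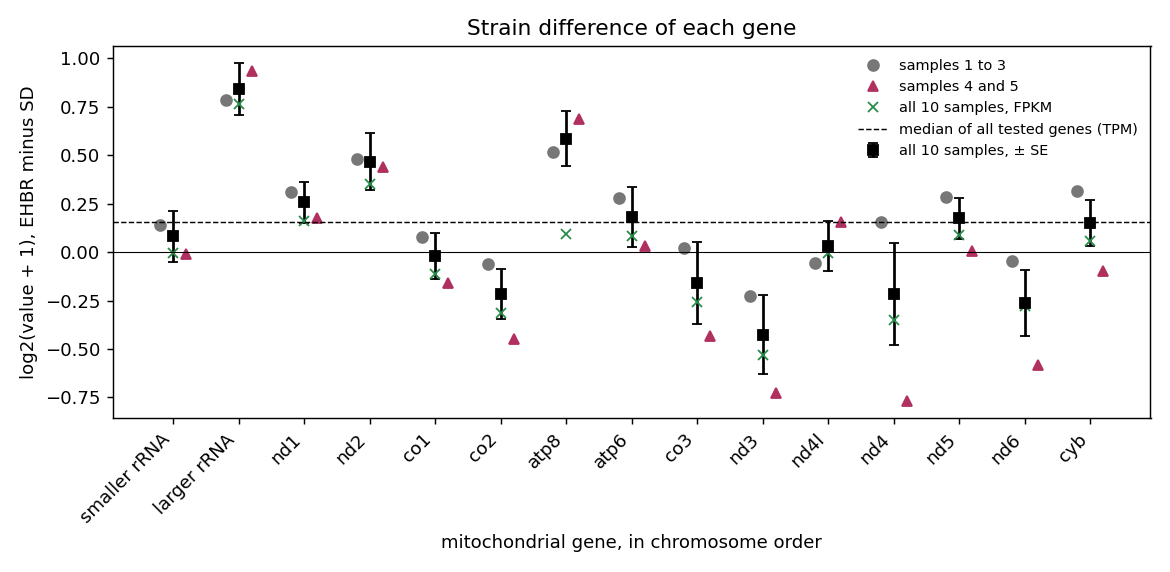
Difference between strains (EHBR minus SD) on the log2(value + 1) scale for each protein-coding and rRNA gene in the order of the chromosome. Squares with bars are all 10 samples with their SE in TPM, crosses are FPKM, circles samples 1 to 3, triangles samples 4 and 5, and the dashed line is the median of all tested genes at 0.15; the triangle lies below the circle except for the larger rRNA gene, Mt-atp8 and Mt-nd4l.

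The tRNA genes are short and most gave few or no reads in these libraries. In TPM, 12 of the 22 did not pass the filter. The tRNA genes together made up 8.67 ± 0.529% of mitochondrial TPM in SD and 8.30 ± 0.889% in EHBR, but 0.358 ± 0.0515% and 0.418 ± 0.0630% of mitochondrial FPKM (± s.d., n = 5 each). None of the 10 tested passed between strains. The 3 with the highest mean TPM are all on the minus strand.

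The highest of them (MT, 6865 to 6933, minus strand, overlapping the end of Mt-co1 by 3 bases) was at 7210.1, 10354, 7524, 10432 and 11634 TPM in SD and 3528, 5324, 8430.2, 5778 and 6891 in EHBR, overlapping, with a log2 difference of -0.69 (SE 0.23, limma adjusted p = 0.11). The next (MT, 3761 to 3831, minus strand, between Mt-nd1 and Mt-nd2) was at 3680.0, 308, 2309, 689 and 183 TPM in SD and 7207, 3836, 4326, 3838 and 5028 in EHBR. Every EHBR value was above every SD value, the SD values were widely scattered, and the log2 difference of 2.55 (SE 0.71, limma adjusted p = 0.061) did not pass. Leaving out SD sample 1 (adjusted p = 0.016) or SD sample 3 (adjusted p = 0.036) moved it past the threshold, as did quantile normalization (adjusted p = 0.0497), and in FPKM the same gene was at 5.21 to 20.8 and 16.3 to 29.5, with overlap and a difference of 0.76 (limma adjusted p = 0.21). The third (MT, 15348 to 15415, minus strand, beyond Mt-cyb) was at 1625 ± 628 and 1392 ± 268 TPM.

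The 2 tables did not hold the same reads for some members. Whole read numbers could be recovered exactly from both, so reads were compared as sums over the 10 samples. For 10 of the 12 plus-strand protein-coding genes and both rRNA genes, the sums were within 10% of each other. Mt-nd6 on the minus strand had 124430 reads behind TPM and 9359 behind FPKM. Of the 9 minus-strand members, 8 had more reads behind TPM, in total 221904 against 12750. The tRNA gene at 3761 to 3831 had 22959 against 228, and that at 6865 to 6933 had 60812 against 2447. These minus-strand values therefore differ by which table is read, far beyond the strain differences.

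The 2 exceptions among the plus-strand protein-coding genes were Mt-atp8 and Mt-nd4l. Mt-atp8 had 427 reads behind TPM and 55359 behind FPKM, and Mt-nd4l, which overlaps Mt-nd4 by 7 bases, had 41168 and 107983. Their longer partners Mt-atp6 (2168619 and 2165775) and Mt-nd4 (94171 and 89767) were close in both, as was Mt-co3 (1526716 and 1530157), which shares 1 base with Mt-atp6. Among the 14 plus-strand tRNA genes, 8 had fewer reads behind TPM, 3 had more and 3 were equal, 192 against 808 in total. The widest gap among them, 0 against 472, was at the tRNA gene at 2665 to 2739, which overlaps no other member. No source used here states how counting treated strand, overlapping genes or reads that match copies of mitochondrial sequence in the nuclear genome, and values of Mt-atp8, Mt-nd4l, the minus-strand members and the plus-strand tRNA genes are uncertain.

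**Figure D4:**
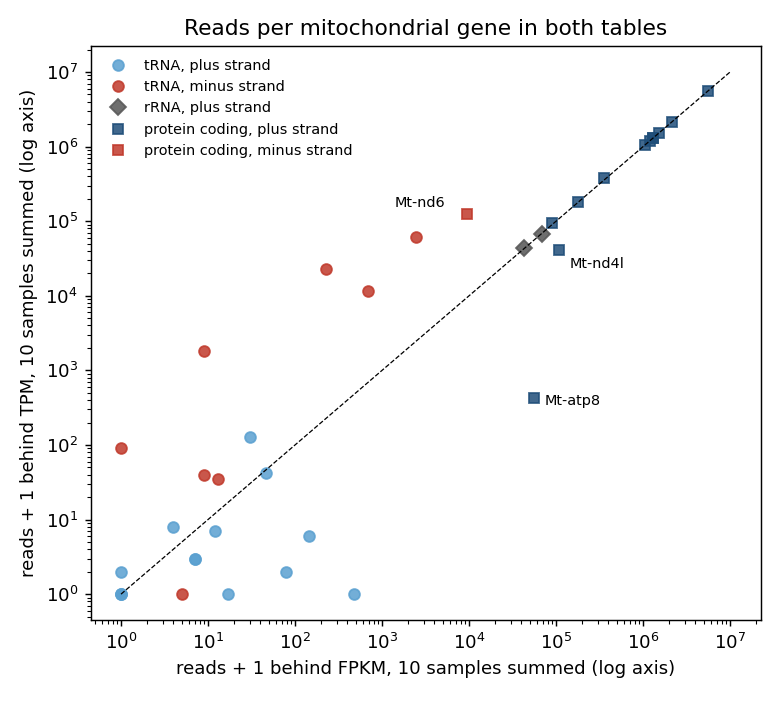
Reads behind the TPM values against reads behind the FPKM values of each of the 37 members, summed over the 10 samples, with 1 added, both axes log; the dashed line marks equal numbers. Red points are minus-strand genes, of which 8 of 9 lie above the line, and Mt-atp8 and Mt-nd4l lie below it.

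The share of several genes within mitochondrial RNA did not overlap between strains, although the total did. Each gene was expressed as a percentage of the chromosome's summed TPM, a quantity that no scaling between libraries can move, though a rise in one share lowers the others. Mt-nd2 made up 8.04, 5.43, 6.94, 6.62 and 5.54% in SD samples 1 to 5. In EHBR it made up 8.87, 8.36, 8.16, 8.56 and 9.56%. Every EHBR share was higher, and the strain means were 6.52 ± 1.08% and 8.70 ± 0.549%. Mt-co2 went the other way, at 10.5, 11.7, 11.7, 10.8 and 11.9% in SD and 9.43, 9.87, 9.97, 9.48 and 8.89% in EHBR. Mt-nd3 was at 3.06, 3.19, 2.90, 3.94 and 4.36% in SD and 2.37, 2.19, 2.51, 2.74 and 2.78% in EHBR. For both, every EHBR share was below every SD share.

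Of the 15 protein-coding and rRNA genes, 3 had shares in EHBR wholly above SD (Mt-nd2, Mt-atp8 and the larger rRNA gene) and 2 wholly below (Mt-co2 and Mt-nd3). In FPKM, Mt-nd2 alone stayed wholly above, and Mt-co2 and Mt-nd3 wholly below. With the summed TPM of the 13 protein-coding genes as the whole, Mt-nd2 and Mt-atp6 were wholly above, Mt-co2 and Mt-nd3 wholly below, and Mt-atp8 overlapped. The larger rRNA gene had a TPM share of 0.282, 0.206, 0.198, 0.147 and 0.147% in SD and 0.400, 0.337, 0.321, 0.289 and 0.333% in EHBR, and its FPKM shares overlapped by SD sample 1 at 0.316%, against 0.312% in the lowest EHBR sample. Mt-nd1 and Mt-atp6 were wholly above in EHBR within samples 1 to 3 and within samples 4 and 5, in both tables, but not over all 10. Mt-atp6 shares were 18.2, 17.4, 17.5, 19.2 and 18.4% in SD and 19.9, 19.3, 18.9, 21.1 and 21.2% in EHBR. Shares of all 15 are a description with no test, since they add up to a whole, and these counts have no counterpart over all tested genes. The TPM share of Mt-atp8 rests on 23 to 58 reads per sample.

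Summed by complex, complex IV RNA held a smaller part of the mitochondrial total in EHBR. Mt-co1, Mt-co2 and Mt-co3 together made up 43.2, 47.1, 46.6, 45.9 and 46.3% in SD and 41.7, 42.6, 41.6, 41.6 and 40.2% in EHBR. The strains did not overlap, in TPM or in FPKM, where the means were 49.3 ± 1.57% and 44.3 ± 0.938%. The 7 complex I genes made up 20.3 ± 1.21% in SD and 22.2 ± 0.361% in EHBR, with SD sample 1 (22.3%) inside the EHBR range. Within complex I the genes did not go one way: Mt-nd1 and Mt-nd2 together were 12.7 ± 1.74% and 15.9 ± 0.423%, without overlap, while Mt-nd3 was lower in EHBR. Shares of Mt-nd2 alone had already separated the strains, so this sum is not separate evidence. The ratio of Mt-nd2 to Mt-nd3 was 2.63, 1.71, 2.39, 1.68 and 1.27 in SD and 3.74, 3.83, 3.25, 3.13 and 3.44 in EHBR. Their shares lay wholly above and wholly below SD, so this ratio had to separate the strains and adds no evidence. Complex V was at 18.1 ± 0.726% and 20.1 ± 1.02%, with overlap in TPM. In FPKM it was at 21.1 ± 0.709% and 23.2 ± 1.11%, every EHBR share being above every SD share. In TPM, complex III was at 6.64 ± 0.317% and 7.20 ± 0.480% (± s.d., n = 5 each).

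**Figure D5:**
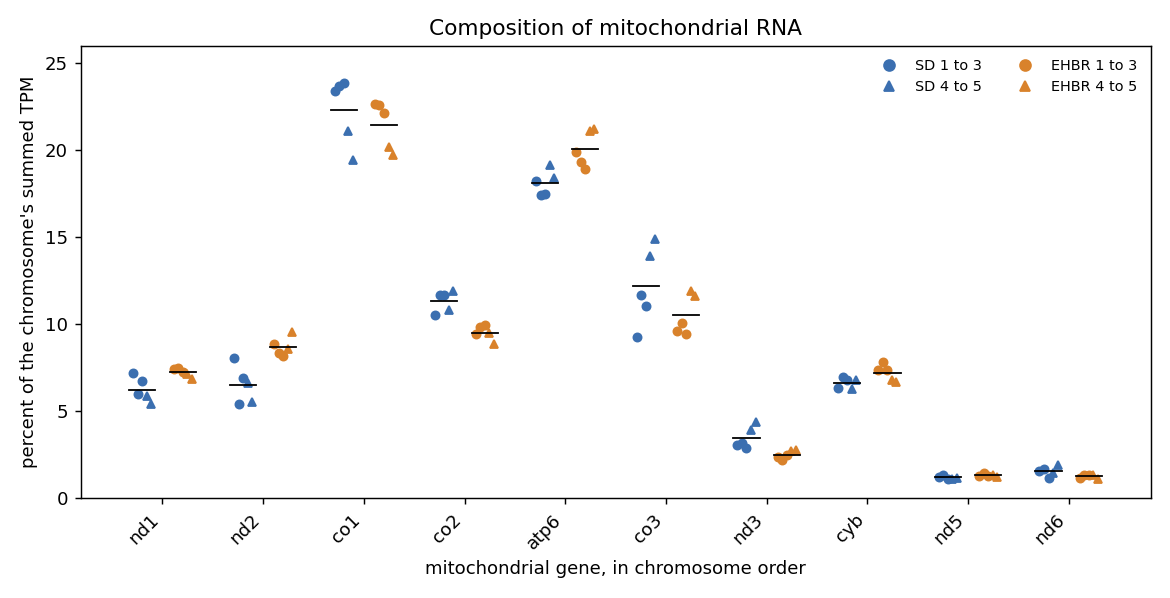
Percent of the chromosome's summed TPM taken by each of 10 protein-coding genes in each sample; points are samples, black lines strain means. EHBR points lie wholly above SD for Mt-nd2 and wholly below for Mt-co2 and Mt-nd3, and triangles (numbers 4 and 5) lie below circles for Mt-co1 in both strains.

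Samples 4 and 5 differed from samples 1 to 3 in the same chromosome, and this division is described without a test. In SD, 12 of the 25 tested members were higher in both of samples 4 and 5 than in all of 1 to 3, and 1, the larger rRNA gene, was lower. Across all tested genes the division in SD ran the other way, with 11.2% higher and 51.4% lower. In EHBR, 5 members were wholly higher (Mt-atp8, Mt-atp6, Mt-co3, Mt-nd3 and the tRNA gene at 15280 to 15346) and 3, all tRNA genes of few reads, wholly lower, beside 12% and 33.6% of all genes. Over both strains at once, Mt-atp6 and Mt-co3 were wholly higher in samples 4 and 5 and no member wholly lower, beside 3.45% and 14% of all genes. In FPKM, Mt-atp6, Mt-co3 and Mt-nd6 were wholly higher in samples 4 and 5 over both strains. The shares of all genes given here are for TPM, and none was worked out in FPKM.

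Of Mt-atp6 and Mt-co3, the second differed more in both strains. In SD, Mt-co3 was at 12418, 15521 and 14361 TPM in samples 1 to 3 and at 24237 and 25364 in samples 4 and 5. The EHBR values were 14749.8, 14202 and 13809 TPM and 18008 and 18802. Samples 4 and 5 were on average 1.76 times as high in SD and 1.29 times in EHBR. For Mt-nd3 these ratios were 1.77 and 1.25, and for Mt-nd4 1.97 and 1.04. In FPKM the ratios of Mt-co3 were 1.95 and 1.35. Those of Mt-nd6 in FPKM were larger, 2.61 and 1.78, with levels of 79.6, 63.5, 72.2, 191 and 183 FPKM in SD and 72.1, 72.7, 62.4, 103 and 143 FPKM in EHBR. Mt-nd6 is one of the minus-strand members for which the tables hold different reads. In TPM, Mt-co1 was 1.12 times as high in SD and 0.946 times in EHBR, and its share of mitochondrial TPM was lower in every one of samples 4 and 5 (19.5 to 21.1%) than in samples 1 to 3 (22.2 to 23.9%). The ratio of Mt-co3 to Mt-co1 ran from 0.396 to 0.493 in the 6 samples numbered 1 to 3 and from 0.590 to 0.766 in the 4 others. Both genes had already been set apart by these same values, so the ratio is not separate evidence of the division.

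Several values moved with that division. Stellate cell and fibroblast markers summed to 143 to 171 TPM in samples 1 to 3 and 77.6 to 138 in samples 4 and 5, and immediate-early and stress genes to 67.0 to 139.5 and 57.4 to 66.7 TPM. The 139.5 TPM was SD sample 3 alone. The other samples numbered 1 to 3 were at 67.0 to 79.1 TPM, just above the 66.7 TPM of EHBR sample 5. The hepatocyte marker sum ran from 140583 to 143546 TPM in the SD pair numbered 4 and 5 and from 158024 to 172327 TPM in the other SD livers. In EHBR the matching ranges were 161410 to 176575 and 173769 to 184878 TPM, above SD within each sample set. Erythroid genes moved with the division in EHBR, at 2987 to 3314 TPM in samples 1 to 3 and 1326 to 1639 in samples 4 and 5, while in SD they were at 982 to 1550 and 1548 to 2048. SD samples 4 and 5 also had the most reads, 19.6 M each. The part of these in the mitochondrial values was not tested. Whether the strain difference of a gene itself differed between the sample sets was tested with an interaction term in limma, and 0 of the 25 members passed, beside 0.271% of all genes. At an unadjusted p under 0.05, limma gave 8 of the 25 with a lower EHBR-minus-SD difference in samples 4 and 5 and 0 with a higher one. Of all tested genes, 3.87% were lower and 16.4% higher at that threshold. Nuclear-encoded respiratory chain and ATP synthase genes had 24 of 80 lower and 0 higher in the same way. Mitochondrial ribosomal protein genes had 9 of 73 lower and 0 higher. The other nuclear lists described below had 0 to 3 lower and 0 to 3 higher each. The division was known from earlier results when the interaction term was chosen.

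The nuclear genes that serve the chromosome gave a background to these values. Among 18 tested genes of mitochondrial DNA transcription and replication, limma called none in either direction (5 higher and 1 lower at an unadjusted p under 0.05, beside 16.6% and 4.35% of all tested genes), and their median log2 difference was 0.19, beside 0.15 over all genes. Tfam, which packages the DNA and starts transcription, was at 28.8 ± 3.98 and 33.8 ± 3.76 TPM (± s.d., n = 5 each, limma adjusted p = 0.30). Polrmt, the mitochondrial RNA polymerase, was at 7.53 ± 0.451 and 9.33 ± 0.922 TPM (adjusted p = 0.18). Polg, the catalytic subunit of the DNA polymerase, was at 44.7 ± 11.9 and 30.5 ± 3.50 TPM (limma adjusted p = 0.13), and its log2 difference of -0.50 passed in FPKM, at -0.61 (adjusted p = 0.032), with quantile normalization, at -0.62 (adjusted p = 0.032), and with median centring, at -0.67 (adjusted p = 0.0054).

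Of 23 tested genes of mitochondrial RNA processing, polyadenylation, stability and decay, 4 were higher in EHBR and none lower, with a median of 0.21. Of all tested genes, limma called 3.82% higher and 1.63% lower. Lrpprc, which binds and stabilises mitochondrial mRNAs, was at 25.4, 23.6, 25.97, 25.3 and 22.0 TPM in SD and 40.2, 40.2, 41.9, 42.7 and 38.1 in EHBR. Every EHBR sample was above every SD sample, by 0.71 on the log2 scale (SE 0.08, limma adjusted p = 0.00075). Its binding partner Slirp was at 17.9 ± 2.11 and 17.8 ± 1.06 TPM (adjusted p = 0.99). Ptcd3, a protein of the small ribosomal subunit, was higher by 0.56 (adjusted p = 0.0092) and Tbrg4, an RNA-binding protein of the FASTK family, by 0.47 (adjusted p = 0.025). The other call, Pnpt1, an exoribonuclease of mitochondria, was higher by 0.38 (limma adjusted p = 0.032). With each sample centred on its median gene, 1 of the 4 remained, Lrpprc, at 0.54 (limma adjusted p = 0.017). That setting called 1.74% of all tested genes higher. The count was 3 in FPKM (2.75% of the genes tested there higher) and 1 with quantile normalization (2.83%).

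Few genes for proteins of the mitochondrial ribosome passed in TPM, where 3.82% of all tested genes were higher and 1.63% lower. Of 73 tested, 1 was higher, Mrpl3 (log2 0.38, limma adjusted p = 0.030), and 1 lower, Mrpl14, at 75.4, 79.8, 74.6, 87.9 and 79.3 TPM in SD and 53.6, 46.5, 49.2, 42.4 and 47.1 in EHBR (log2 -0.72, adjusted p = 0.00088). The Mrpl3 call was lost in FPKM (log2 0.29, adjusted p = 0.082), with quantile normalization (adjusted p = 0.061), with median centring (log2 0.21, adjusted p = 0.31) and in samples 4 and 5 alone (adjusted p = 0.13). In FPKM none of the 73 was higher and 2 were lower, beside 2.75% and 2.04% of the genes tested there. The median of the 73 was 0.03. Among 12 translation factors limma called none. At an unadjusted p under 0.05 it gave 5 higher and 0 lower in TPM, beside 16.6% and 4.35% of all tested genes. In FPKM it gave 1 higher and 1 lower, beside 1211 and 706 of the 10020 genes tested there. Tufm, the elongation factor Tu, was at 90.5 ± 2.96 and 105 ± 5.58 TPM. Of 8 tested biogenesis regulators limma called none (1 higher unadjusted), with Sirt3, a mitochondrial deacetylase, at 34.6 ± 2.76 and 41.0 ± 4.81 TPM. The coactivator Ppargc1a was under the filter, at 0.309 to 0.995 TPM in SD and 0.492 to 1.83 in EHBR. Of 17 mitophagy and protein quality control genes, 1 was higher and none lower, beside 3.82% and 1.63% of all tested genes. It was Hspa9, the matrix chaperone, at 73.9 ± 11.2 and 130.4 ± 7.85 TPM (log2 0.82, limma adjusted p = 0.0016).

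Most nuclear-encoded partners of the 13 mitochondrial proteins did not pass either. Of 80 tested genes for respiratory chain and ATP synthase subunits, 6 were higher, none lower and 74 did not pass, with a median of 0.01. The mitochondrial members had 2 of 25 higher and a median of 0.04. Among all tested genes 3.82% were higher and 1.63% lower, with a median of 0.15. The leading 3 were Ndufa10l1 (log2 0.58), the complex III core protein Uqcrc2 (0.48) and the ATP synthase alpha subunit Atp5f1a (0.45), with limma adjusted p of 0.0014, 0.0032 and 0.0074. None of the 6 passed with median centring (1.74% of all tested genes higher), and in FPKM the count was 2 (2.75%). Like the mitochondrial share, their summed TPM was highest in SD samples 4 and 5, at 26803 to 28556, against 18312 to 21299 in SD samples 1 to 3. In EHBR it was also higher in samples 4 and 5, at 24330 to 26376.5, than in samples 1 to 3, at 21652 to 22756. The median difference of the 80 was 0.13 within samples 1 to 3 and -0.15 within samples 4 and 5. Over all tested genes these medians were 0.07 and 0.27.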

How the data were processed

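Liver RNA of 5 SD and 5 EHBR rats was extracted with TRIzol, selected for poly(A) and sequenced from directional libraries (labels' protocols). Tools in the submitters' processing notes are HISAT2 2.1.0 and featureCounts 1.6.3, besides Trimmomatic 0.38 and FastQC 0.11.7, on rn6 and without settings. The authors deposited TPM, FPKM and upper-quartile FPKM (a signal scaled to a library's upper-quartile gene) for 32883 genes.

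Groups came from sample titles. The main test was limma 3.58.1 in R 4.3.3, with trend, on log2(TPM + 1) of the 11083 genes that reached 1 TPM in 5 or more samples, with strain alone, two-sided, Benjamini-Hochberg adjusted over all of them, threshold 0.05. Fold changes on this scale understate changes of low genes. Labels do not say how animals were bred, so a p-value sets the difference between these samples against their scatter and no more. The test was checked on simulated data for 11083 genes. It recovered 24% of log2 changes of 0.5, 76% of 1 and 98% of 2, with 10 false calls in all. The share of mitochondrial TPM was tested by exact permutation in Python 3.11.15.

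Whole reads were recovered from the deposited upper-quartile FPKM for all 18036 genes above 0 in FPKM, within 0.0002 reads, a closeness the search for lengths demands. For 17965 of them TPM also gave whole reads at the same length, within 0.01 reads. All 37 mitochondrial genes came out whole in both. With simulated reads, all of 1000 genes were returned exactly. These reads served the depths, the comparison of both units and voom fits.

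The members and the gene lists were chosen with earlier results of these data known. Named genes were all protein-coding and rRNA members, the 3 tRNA genes of highest mean, and from each nuclear list up to 3 calls of smallest adjusted p or its most abundant gene, plus Tfam, Polrmt, Lrpprc, Slirp and Ppargc1a. Other alternatives were pseudocounts of 0.1 and 5, other filters, quantile normalization, median centring, a term for numbers 4 and 5, each sample set alone, and leaving out each sample.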

Additional observations from a re-analysis of the deposited data

Results flagged for a closer look

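In SD, the larger rRNA gene was at 378 TPM in sample 1, far above the other 4 SD samples (251 to 274 TPM). In EHBR, Mt-atp8 made up 0.0166% of mitochondrial TPM in sample 4, above the other 4 EHBR samples (0.0149 to 0.0153%). Each stood out by a gap that was large against the range of its own group. Of 68 groups examined in this way these were the 2 found, and chance alone marks about 1 in 20.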

How the results depend on the processing

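The count of members higher in EHBR was 2. It was 1 in FPKM, in upper-quartile FPKM, with no filter, with median centring, with voom on the reads behind TPM, in samples 1 to 3 alone and in the FPKM of samples 4 and 5 alone, settings that called 1.18 to 4.35% of all tested genes higher. It was 4 with a term for numbers 4 and 5 (13.6% of all), 3 with quantile normalization (2.83%), where Mt-nd1 and the tRNA gene at 3761 to 3831 passed and Mt-atp8 did not, and 0 in the FPKM of samples 1 to 3 alone (3.5%). It ranged from 1 to 3 when single samples were left out. The count of members lower, 0, became 2 with the term for numbers (3.36% of all lower), 4 in samples 4 and 5 alone (1.01%), 1 in FPKM with that term (4.85%) and 1 in the FPKM of samples 4 and 5 alone (0.928%), and stayed 0 when single samples were left out. FPKM with the term and FPKM within sample sets were chosen after seeing the data, as were the shares without tRNA genes and of reads behind TPM. The difference in mitochondrial share, 0.249 percentage points, was -0.345 as a share of reads behind FPKM, -0.337 as a share of reads behind TPM and -1.56 in samples 4 and 5 alone, and ranged from -0.208 to 0.893 when single samples were left out. The cause of these changes was not tested. TPM puts the median of all tested genes 0.15 higher in EHBR on the log2 scale, FPKM 0.07 and quantile normalization 0.01.

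The larger rRNA gene kept its direction and its call in 25 of 27 alternatives, and Mt-atp8 kept its call in 7. The same sample numbers occur in both strains, but same-numbered samples correlated at 0.07 to 0.29 in their deviations, 1 pair under 0.1, and 4 of 10 samples correlated best with their own number, so the numbers were not taken to pair the samples. With a replicate block, 3 members were higher and 0 lower, beside 5.77% and 2% of all tested genes, and the mitochondrial share differed by 0.249 points (exact sign-flip p = 0.81, where the smallest possible is 0.0625).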
